A study of Mus musculus with 6 samples.

Results

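Lipid-associated phagocyte genes are transcripts that macrophages and microglia are known to raise when they take up lipid-rich debris. They were followed here through 10 of the 46078 genes counted in the RNA-Seq tables, chosen by symbol with earlier results of these data known. The phagocyte surface and secreted genes were *Gpnmb*, *Spp1*, *Cst7* and *Cd5l*. The lipid-handling genes were *Lpl*, *Fabp4*, *Fabp5* and *Pparg*, and the tetraspanins were *Cd9* and *Cd63*. Tissue came from 3-month-old wild-type C57BL/6J mice, male per the methods of the study, at 7 weeks after stroke by distal middle cerebral artery occlusion with hypoxia. The 2 groups were the stroke infarct (n = 3) and the contralateral cortex (n = 3), and all of the mice had undergone stroke. The sample records name no treatment, whereas the methods describe tissue collection for vehicle- and HPβCD-treated mice. The study describes its young adult infarct comparison without naming a drug, and reports RNA-Seq of HPβCD-treated mice for aged animals. Infarcts were found by eye and cut out with a razor blade, so each library is a mixture of all the cells in a piece of tissue. The records number the libraries 1, 2 and 3 within each region but do not say which infarct and which cortex came from the same mouse. The *p* values therefore rest on the spread between these samples and treat the 6 libraries as independent. That would not hold if an infarct and a cortex came from the same mouse.

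In injured brain and in adipose tissue, atherosclerotic plaque and demyelinated lesions, phagocytes that engulf cell membranes have to store, carry and release large amounts of fatty acids and cholesterol. Lipoprotein lipase frees fatty acids from triglyceride, fatty acid-binding proteins carry them through the cytosol, and the nuclear receptor PPARγ responds to them by switching on lipid-handling genes. *Gpnmb*, *Spp1*, *Cst7*, *Lpl*, *Cd9* and *Cd63* belong to the expression program shared by lipid-associated macrophages and disease-associated microglia.

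The sequences just before the start sites of 3 secreted or surface genes are shown because these genes had among the widest gaps between regions. They are RefSeq windows of 250 bases on GRCm38.p6, written 5′ to 3′ on the strand of the gene, at chr6:49036268-49036517 for *Gpnmb*, chr5:104434861-104435110 for *Spp1* and chr3:87357631-87357880 for *Cd5l*, all on the + strand. Capitals mark GAGGAA, a letter order recognized by the macrophage factor PU.1, or TTCCTC, the same letters read on the other strand. Shorter or other letter orders were not marked.
Gpnmb: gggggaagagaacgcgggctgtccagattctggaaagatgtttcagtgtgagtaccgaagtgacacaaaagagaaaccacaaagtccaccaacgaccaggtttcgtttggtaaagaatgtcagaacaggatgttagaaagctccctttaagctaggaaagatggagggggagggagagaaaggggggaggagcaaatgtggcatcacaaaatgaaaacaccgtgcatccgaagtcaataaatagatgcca
Spp1: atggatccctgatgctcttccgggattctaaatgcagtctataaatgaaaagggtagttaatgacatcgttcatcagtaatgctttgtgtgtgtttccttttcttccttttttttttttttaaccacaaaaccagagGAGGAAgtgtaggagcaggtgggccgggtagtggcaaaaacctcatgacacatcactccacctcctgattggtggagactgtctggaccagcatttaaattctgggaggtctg
Cd5l: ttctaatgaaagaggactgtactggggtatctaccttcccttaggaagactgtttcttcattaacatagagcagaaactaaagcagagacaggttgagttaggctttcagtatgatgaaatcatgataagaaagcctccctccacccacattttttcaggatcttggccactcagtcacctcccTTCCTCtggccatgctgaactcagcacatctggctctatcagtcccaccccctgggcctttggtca

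GAGGAA lay 113 to 108 bases before the *Spp1* start and, on the other strand, 66 to 61 bases before the *Cd5l* start. It was absent from the *Gpnmb* window. Promoter windows were matched for 7 of the 10 genes, with 10 start sites among them, and not for *Lpl*, *Fabp4* or *Fabp5*. GAGGAA occurred in 4 of these 10 windows (at *Spp1*, *Cd63*, *Cd5l* and *Pparg*), beside 23.3% of all 32851 windows of this length. AGGTCA, the half-site of nuclear receptors such as PPARγ, occurred in 2 of the 10 windows, both at *Pparg*, beside 14% of all windows. CATGTG, a letter order bound by MiT/TFE factors, occurred in 1 of the 10 windows, at *Cd9*, beside 12.3% of all windows. CACGTG, another MiT/TFE letter order, was found at none of these start sites, beside 6.02% of all windows. The AP-1 letters TGANTCA were found at none either, beside 6.75%, and the same held for a direct repeat of the nuclear receptor half-site with 1 base between its copies, beside 0.0335%. Both strands were searched, and a match describes letters and not binding.

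All 10 genes were upregulated in infarcts, and for each of them the lowest infarct library lay above the highest contralateral library. With few or no contralateral counts, *Cst7*, *Fabp4* and *Cd5l* passed the count filter through their infarct counts. Their direction was therefore set by entry into the test. Over all 15554 tested genes, 25.7% were called higher in infarcts, 20.9% were called lower, and 37.6% had infarcts above contralateral cortices without overlap, so the direction alone was common in these data. The sizes spanned a wide range, from a log2 fold change of 2.21 for *Pparg* to 11.14 for *Cd5l*. The median of the 10 was 5.44, and the same with *Fabp4* set at its lower bound, beside 0.03 for all tested genes. As the 10 genes were chosen with earlier results of these data known, their comparison with all tested genes is a description. Together the 10 genes took 0.805% to 0.963% of all counts on genes in infarcts and 0.00981% to 0.0112% in contralateral cortices. Changes were called at an adjusted *p* under 0.05 (edgeR quasi-likelihood test, Benjamini-Hochberg over all tested genes) with a log2 fold change beyond 1. In bulk tissue, more cells of a type and more RNA per cell cannot be told apart.

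Counts on genes per library ranged from 12146959 to 13427057 in infarcts and from 11943570 to 19933962 in contralateral cortices. The makeup of the tissue moved with region. All 12 pan-macrophage markers were called higher, with a median log2 fold change of 4.57 and a summed level of 1669 to 2193 CPM (counts scaled to library size) in infarcts and 170 to 227 CPM in contralateral cortices. The 8 fibroblast markers and the 9 T and B lymphocyte markers were all called higher as well (medians 6.44 and 8.06), and the 8 neuron markers were all called lower (median -2.98), with none at 0 in the cortex libraries. The part that these differences in makeup play in the levels of the 10 genes was not tested.

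**Figure D1:**
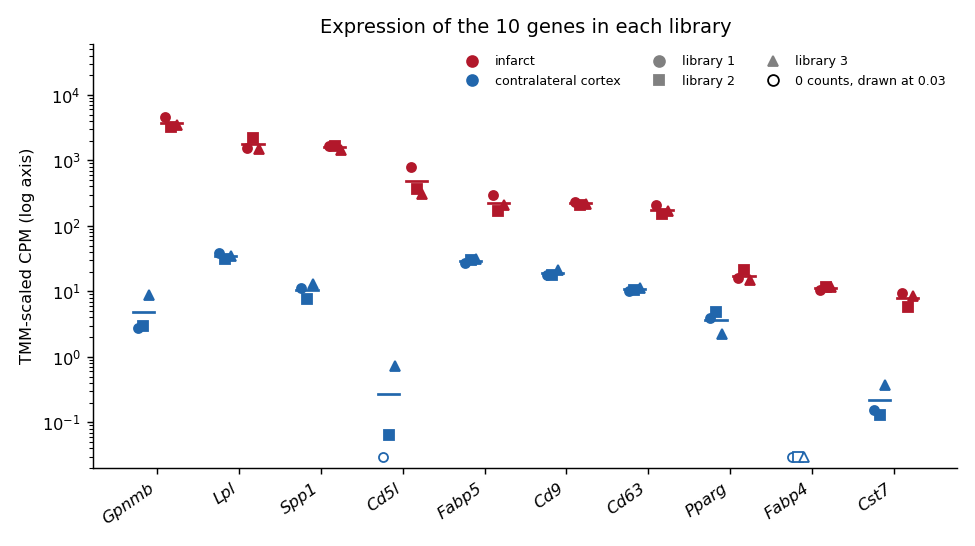
Level of each of the 10 genes in each library, in TMM-scaled CPM on a log axis, with red symbols for the 3 infarcts, blue symbols for the 3 contralateral cortices, short lines for group means and open symbols for libraries with 0 counts. No gene overlaps between regions. *Gpnmb* spans the largest levels in infarcts, 3193 to 4543 CPM, and *Fabp4* has no contralateral counts.

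*Gpnmb* encodes a transmembrane glycoprotein of the lysosome and cell surface of phagocytes (chr6:49036546-49070929, + strand, GRCm38). It was measured at 4543, 3193 and 3534 CPM (TMM-scaled) in infarcts 1, 2 and 3, and at 2.77, 3.00 and 8.77 CPM in contralateral cortices 1, 2 and 3. These rest on 57032, 43486 and 51782 counts against 53, 46 and 95 counts, so that *Gpnmb* by itself held 0.348% to 0.470% of all counts on genes in infarcts. The means were 3757 ± 702 CPM and 4.84 ± 3.40 CPM (SD, n = 3 each), a ratio of 776, and the log2 fold change was 9.64 (SE 0.42, adjusted *p* = 2.47e-06, edgeR). Contralateral cortex 3 stood above the other cortices at 0.233% of the infarct mean, against 0.0737% and 0.0797% in cortices 1 and 2. Without it the log2 fold change of *Gpnmb* was 10.34.

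*Spp1* encodes osteopontin, a secreted glycoprotein that binds integrins and CD44 (chr5:104435118-104441050, + strand). Its levels were 1665, 1685 and 1422 CPM in infarcts, with the 3 libraries close to each other, and 11.1, 7.75 and 13.1 CPM in contralateral cortices. *Spp1* thus had a log2 fold change of 7.22 (SE 0.21, adjusted *p* = 1.64e-07, edgeR), with means of 1590 ± 146 and 10.7 ± 2.71 CPM. An annotated transcript on the same strand, *Gm42793*, covers 18.8% of the *Spp1* exon bases and held at most 13 counts in any library. Reads from the shared stretch could have been set aside as ambiguous, which was not tested.

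*Cd5l* encodes a secreted scavenger receptor cysteine-rich protein made by tissue macrophages, also called AIM (chr3:87357881-87371073, + strand). It was measured at 784, 364 and 305 CPM in infarcts. Contralateral cortices held 0, 1 and 8 counts in libraries 1, 2 and 3, that is 0, 0.0651 and 0.738 CPM. The gap was wide in every pairing of libraries, while infarcts themselves differed by 2.57-fold between the highest and the lowest, the widest range among the 10 genes. The log2 fold change of 11.14 (SE 1.15, adjusted *p* = 4.49e-05, edgeR) rests on 9 contralateral counts. Leaving out contralateral cortex 3 gave 13.66, and leaving out contralateral cortex 1 gave 10.37. Infarct 1, with the highest *Cd5l*, also had the highest summed level of T and B lymphocyte markers (2316 CPM, against 852 and 267 CPM in infarcts 2 and 3) and of pan-macrophage markers (2193, 1685 and 1669 CPM), and the part of either in the *Cd5l* level was not tested.

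*Cst7* encodes cystatin F, an inhibitor of lysosomal cysteine proteases (chr2:150570415-150578944, + strand). In contrast to the 3 genes above, it was a low transcript in infarcts, at 9.40, 5.73 and 8.53 CPM. Contralateral cortices held 3, 2 and 4 counts, at 0.157, 0.130 and 0.369 CPM. The log2 fold change was 5.23 (SE 0.51, adjusted *p* = 5.25e-06, edgeR).

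Among the lipid-handling genes, *Lpl*, the enzyme that releases fatty acids from lipoprotein triglyceride (chr8:68880491-68907448, + strand), had the highest level. It was measured at 1563, 2210 and 1485 CPM in infarcts and at 38.3, 31.6 and 34.6 CPM in contralateral cortices. Unlike most of the 10 genes, it was highest in infarct 2. The means were 1753 ± 398 and 34.9 ± 3.36 CPM, and the log2 fold change was 5.65 (SE 0.20, adjusted *p* = 1.70e-07, edgeR).

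The fatty acid-binding proteins *Fabp4* and *Fabp5* lie on chromosome 3, 187480 bases apart (*Fabp5* at chr3:10012548-10016607 on the + strand, *Fabp4* at chr3:10204088-10208576 on the - strand). *Fabp4*, known from adipocytes, macrophages and endothelium, had 130, 157 and 172 counts in infarcts (10.4, 11.5 and 11.7 CPM) and 0 counts in every contralateral library. With 3 counts allowed per contralateral library, the *Fabp4* level was higher in infarcts by at least 53.5-fold (adjusted *p* = 2.14e-06, edgeR). *Fabp5*, the more widely expressed of the pair, was detected on both sides, at 294, 170 and 208 CPM in infarcts and 27.0, 30.4 and 30.9 CPM in contralateral cortices. For *Fabp5* the log2 fold change was 2.93 (SE 0.20, adjusted *p* = 2.37e-06, edgeR).

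Most adipocyte markers were at or near 0 in both regions. *Cidec* and *Cfd* had 0 counts in all 6 libraries, *Adipoq*, *Plin1*, *Lep* and *Retn* had at most 6 counts in any library, and *Pnpla3*, the only adipocyte marker with enough counts to test, was lower in infarcts (log2 fold change -3.16). Endothelial markers were higher for 5 of 10, with a median log2 fold change of 0.93 and no gene called lower. Which cells carried *Fabp4* and *Lpl* was not tested.

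*Pparg*, the nuclear receptor that drives lipid storage genes (chr6:115360951-115490399, + strand), changed least. It was measured at 15.9, 21.1 and 14.7 CPM in infarcts and 3.92, 4.88 and 2.22 CPM in contralateral cortices. The regions did not overlap, and the log2 fold change was 2.21 (SE 0.28, adjusted *p* = 1.06e-04, edgeR).

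The tetraspanins *Cd9* and *Cd63* are small membrane-spanning proteins of the plasma membrane and, for CD63, of late endosomes, lysosomes and exosomes. *Cd9* (chr6:125460266-125494791, - strand) had the tightest infarct values of the 10 genes, at 231, 210 and 219 CPM, against 17.9, 17.6 and 21.2 CPM in contralateral cortices. *Cd9* had a log2 fold change of 3.54 (SE 0.14, adjusted *p* = 1.77e-07, edgeR). *Cd63* (chr10:128900989-128912822, + strand) was measured at 206, 151 and 168 CPM against 10.2, 10.7 and 11.4 CPM, with a log2 fold change of 4.02 (SE 0.16, adjusted *p* = 1.79e-07, edgeR). Some stretches of both genes are shared with other annotated genes. Of all windows of 75 bases, the read length, in *Cd63* transcripts 6.47% also occurred in its pseudogene *Cd63-ps*. For *Cd9*, 7.63% of windows occurred in other genes, and for *Fabp5* 3.03% did. The genes sharing windows with *Cd9* include *Gm26728*, which overlaps 10.7% of the *Cd9* exon bases on the other strand. *Gm26728* held at most 2 counts in any library. Reads from shared stretches could be left out of the counts, which was not tested. The share was largest for *Spp1*, at 8.55%, all with *Gm42793*, and was 0.89% for *Lpl*. No window of *Gpnmb*, *Cst7*, *Fabp4*, *Cd5l* or *Pparg* was shared.

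**Figure D2:**
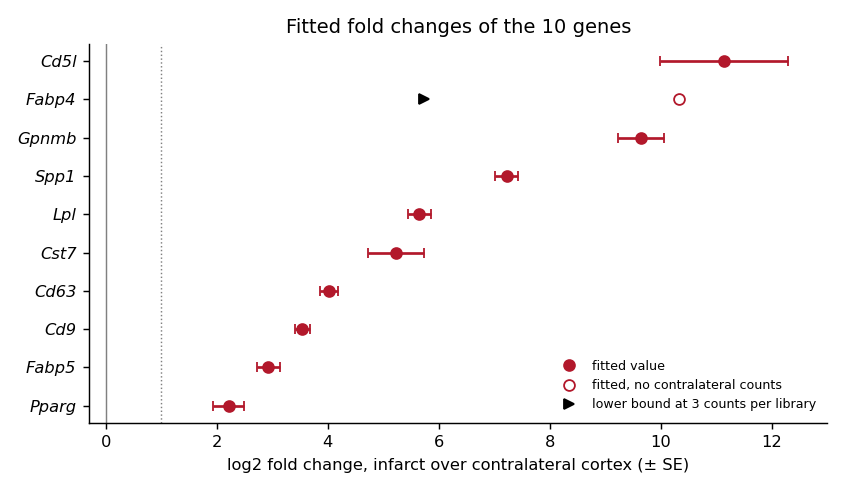
Fitted log2 fold change of each of the 10 genes, infarct over contralateral cortex, with bars of ± 1 SE; the dotted line marks the threshold of 1. Of the 9 genes with contralateral counts, *Cd5l* (11.14) and *Gpnmb* (9.64) lie farthest to the right and *Pparg* (2.21) nearest to the threshold; for *Fabp4* the open symbol is the fitted value without contralateral counts and the arrowhead is the lower bound at 3 counts per library.

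The order of the 10 genes was different on the 2 sides of the brain. Per kilobase of the longest coding transcript, infarct levels were highest for *Spp1* (1055 ± 97.1 CPM per kb) and *Gpnmb* (1015 ± 190), whose ranges overlapped. *Lpl* followed at 426 ± 96.7, with a range below that of *Gpnmb*. *Cd5l*, *Fabp5*, *Cd9* and *Cd63* came next, at 238, 227, 179 and 158 CPM per kb, each overlapping its neighbor in the order. *Fabp4* (12.5), *Pparg* (8.12) and *Cst7* (8.00) formed a low end that did not overlap with *Cd63*. In contralateral cortex the order opened with *Fabp5* (29.8 CPM per kb), *Cd9* (15.4) and *Cd63* (9.73), and *Gpnmb* was seventh at 1.31. When all annotated exon bases were used as the length, *Spp1* and *Gpnmb* stayed first and second in infarcts, *Cd5l* moved ahead of *Lpl*, and *Fabp4* became last.

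The highest library within each region was also noted for each gene. Infarct 1 was the highest infarct for 6 of the 10 genes, infarct 2 for 3 (*Lpl*, *Spp1* and *Pparg*) and infarct 3 for 1 (*Fabp4*). Contralateral cortex 3 was the highest cortex for 7 of the 9 genes with contralateral counts, and for *Pparg* it was the lowest. The same tally over all tested genes was not made. Some of these ranks rest on small gaps, such as *Fabp5* at 30.9 and 30.4 CPM in contralateral cortices 3 and 2. Over the 6 libraries, the closest profiles among the 10 genes were those of *Cd9* and *Cd63*, with a root mean square difference of 0.251 in centered log2 CPM. The nearest genes outside the 10 were *Atp6v0d2* and *Clec12a* for *Gpnmb* (0.338 and 0.476), *Ifi207* and *Lum* for *Spp1* (0.108 and 0.113), and *Mmp3* and *C3* for *Cd5l* (0.239 and 0.375). *Gdf3* and *C5ar1* were nearest to *Lpl* (0.161 and 0.174), *Dhrs9* and *Gpx3* to *Fabp4* (0.160 and 0.191), and *Prickle3* and *Dsc2* to *Pparg* (0.104 and 0.122). *Hvcn1* and *Anxa2* were nearest to *Cst7* (0.142 and 0.172), *Bace2* and *Zfp36* to *Cd9* (0.066 and 0.087), *Slfn5* and *Arpc1b* to *Cd63* (0.071 and 0.077), and *Slc25a13* and *Mdk* to *Fabp5* (0.096 and 0.111). These are descriptions over 6 libraries in 2 regions, in which a similar difference between regions is enough to bring genes together. The prior count in these profiles compresses differences of genes with few counts, so fitted fold changes can differ between near profiles. For instance, the log2 fold change was 9.8 for *Gdf3* and 5.65 for *Lpl*.

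To ask whether the 10 genes differed by more than general macrophage transcripts, each library was rescaled so that the median of the 12 pan-macrophage markers was equal in all 6. This reference level was 91.6, 85.8 and 66.0 CPM in infarcts and 4.38, 2.44 and 3.40 CPM in contralateral cortices, a log2 difference of 4.60. Relative to it, 5 of the 10 genes were called higher in infarcts, beside 2.37% of all tested genes. Another 3 genes were called lower, beside 92% of all tested genes, so a lower ratio is what most genes show on this scale. The regions did not overlap for the 5 higher genes or for the 3 lower genes. How many of all tested genes lack overlap on this scale was not counted. The error of the reference level is shared by all genes in this fit, which makes its *p* values and SEs unreliable. The calls on this scale, which use those *p* values, are therefore a description, and each gene is given by its values in every library and by whether the regions overlapped.

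*Gpnmb* stood at 4958%, 3723% and 5352% of the reference in infarcts and at 63.2%, 123% and 258% in contralateral cortices, with a relative log2 fold change of 5.0, or 5.67 without contralateral cortex 3. *Cd5l* stood at 855%, 424% and 462% against 0%, 2.67% and 21.7%, a relative change of 6.52. Without contralateral cortex 1 this *Cd5l* value was 5.58, and without contralateral cortex 3 it was 9.38. *Spp1* stood at 1817%, 1964% and 2153% against 254%, 318% and 386%, a relative change of 2.64. For these 3 genes and for *Fabp4* (11.3%, 13.4% and 17.8% against 0 counts), the gap between regions was thus wider than that of the macrophage markers.

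*Lpl* exceeded the reference on both sides, at 1706%, 2577% and 2250% in infarcts and 876%, 1297% and 1019% in contralateral cortices. Its relative change of 1.03 lay at the threshold, and the call was lost without infarct 2 (0.90), without contralateral cortex 1 (0.91), without contralateral cortex 3 (1.0) and with a minimum of 10 counts in every library (0.88). *Cst7* (10.3%, 6.68% and 12.9% against 3.58%, 5.34% and 10.9%) and *Cd63* (225%, 176% and 254% against 234%, 438% and 337%) overlapped between regions and were not called.

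*Pparg* stood at 17.4%, 24.6% and 22.3% of the reference in infarcts and 89.5%, 200.1% and 65.2% in contralateral cortices, a relative change of -2.45. *Fabp5* stood at 320%, 198% and 315% against 616%, 1246% and 911% (-1.73). *Cd9* stood at 252%, 245% and 332% against 409%, 720% and 625% (-1.08), and its call was lost without infarct 2 (-1.0) and without contralateral cortex 2 (-0.90). The direction for *Cd9*, *Cd63*, *Fabp5* and *Pparg* depended on which cells served as the reference, and the size on how the markers were combined. With the mean log2 level of the same 12 pan-macrophage markers in place of the median, the values were -0.53, -0.08, -1.19 and -1.88. A reference from their summed level was not tested. With 12 homeostatic microglia markers in place of the pan-macrophage markers, of which 6 were called higher and 1 lower (*Slc2a5*) with a median log2 fold change of 1.27, the relative changes were 2.11, 2.59, 1.5 and 0.79, and 9 of the 10 genes were called higher.

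**Figure D3:**
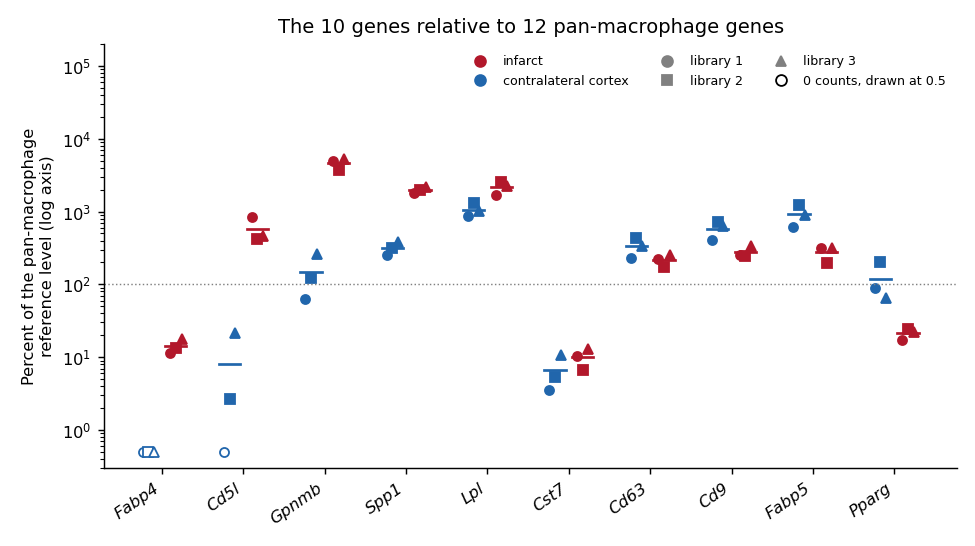
Each of the 10 genes as a percent of the median level of 12 pan-macrophage markers in the same library, on a log axis, with red symbols for infarcts, blue symbols for contralateral cortices, short lines for group means and open symbols for 0 counts; the dotted line marks 100%. *Fabp4*, *Cd5l*, *Gpnmb*, *Spp1* and *Lpl* lie higher in infarcts, *Cst7* and *Cd63* overlap, and *Cd9*, *Fabp5* and *Pparg* lie lower.

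Relatives and partners of the secreted and surface genes were then examined. The MiT/TFE factors, which drive lysosomal genes and *Gpnmb*, were all called higher: *Mitf* by a log2 fold change of 2.51 (SE 0.21), *Tfeb* by 2.53 (SE 0.27) and *Tfe3* by 1.08 (SE 0.15), while *Tfec* was measured at 6.35 to 8.81 CPM in infarcts and at most 0.104 CPM in contralateral cortices. With *Sdc4*, a surface proteoglycan that binds GPNMB (2.07), this list had 5 of 5 tested genes higher and a median of 2.51. *Pmel*, the paralog of *Gpnmb*, had too few counts to test. It was below 0.56 CPM in every library.

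Of the receptors for osteopontin, 8 of 10 tested genes were called higher and none lower, with a median of 2.34. *Cd44* had the largest change (5.49, SE 0.16), followed by *Itga5* (4.24), *Itgb5* (3.21) and *Itgb1* (2.94). *Itgav*, the alpha chain that pairs with several of these beta chains, was measured at 453, 511 and 383 CPM against 387, 495 and 452 CPM and overlapped between regions (0.01, SE 0.17). *Itgb8* was not called either (-0.19, SE 0.14). The other bone-matrix glycoproteins of the *Spp1* family were scarce. *Dmp1* was called lower (-3.73, SE 0.66) at under 5.1 CPM everywhere, and *Ibsp* had 10, 9 and 12 counts in infarcts and 0 in every contralateral library, at least 3.62-fold higher and below the count filter of the test.

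The cysteine proteases and processing enzymes that cystatin F acts on or is processed by were all called higher, 8 of 8, with a median of 4.68. *Ctsl* rose by 4.84 (SE 0.18), *Ctsc* by 4.62 (SE 0.21) and *Ctsk* by 5.47 (SE 0.25) on the log2 scale, and *Lgmn* by 3.08 (SE 0.20). Of the other cystatins only *Cst3* and *Cstb* could be tested. *Cstb* was called higher (2.99, SE 0.24), and *Cst3*, the abundant brain cystatin, was higher in every infarct library but under the fold threshold (0.95, SE 0.15).

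In the list of scavenger receptor cysteine-rich relatives and regulators of *Cd5l*, 8 of 12 tested genes were called higher and none lower (median 3.32). *Msr1*, the macrophage scavenger receptor, rose by 7.94 (SE 0.36), the LXRα gene *Nr1h3* by 3.61 (SE 0.27) and *Maf* by 1.41 (SE 0.19). *Cd163*, a marker of border-associated macrophages, was measured at 4.30, 3.01 and 2.52 CPM against 2.77, 2.08 and 2.21 CPM (0.46, SE 0.32, not called), although 8 of 9 markers of that cell type were called higher (median 2.18). *Nr1h2*, encoding LXRβ, was not called (0.38, SE 0.20).

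Around *Lpl*, 8 of 14 tested partners were called higher and 2 lower, with a median of 1.84. The lipase activator *Apoc2* was measured at 4.62, 4.55 and 3.41 CPM in infarcts and had 0 counts in every contralateral library, at least 20.01-fold higher. The lipase inhibitor *Angptl4* rose as well (3.49, SE 0.32), as did the fatty acid receptor *Cd36* (7.98, SE 0.20), the lysosomal lipase *Lipa* (5.21, SE 0.18) and the lipoprotein receptor *Lrp1* (1.72, SE 0.21). Of the lipase maturation factors, *Lmf2* was called higher (1.97) and *Lmf1* was just under the fold threshold (0.98, SE 0.20). *Lipg*, encoding endothelial lipase, and *Lrp8*, encoding an apolipoprotein E receptor of neurons, were called lower (-2.13 and -1.68). *Gpihbp1*, which anchors lipoprotein lipase to capillary endothelium, had 0 counts in all 6 libraries.

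In the fatty acid-binding protein family, with *Fabp4* and *Fabp5* included, 4 of 10 genes could be tested. Of these, 3 were called higher (*Fabp4*, *Fabp5* and *Fabp7*) and 1 lower (median 2.12). *Fabp7*, the form of astrocytes and radial glia, was measured at 27.0, 19.1 and 35.6 CPM against 11.4, 8.60 and 12.8 CPM (1.32, SE 0.25). *Fabp3*, the heart and neuronal form, was the gene called lower, at 1.91, 0.881 and 2.46 CPM against 4.18, 2.67 and 4.15 CPM (-1.06, SE 0.40, adjusted *p* = 0.0417, edgeR). *Fabp1*, *Fabp6*, *Fabp9*, *Fabp12* and *Pmp2* had 0 counts in all 6 libraries.

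Around *Pparg*, neither of the other PPAR receptors was called. *Ppara* was measured at 1.25 to 2.23 CPM in infarcts and 2.14 to 3.71 CPM in contralateral cortices (-0.75, SE 0.37, not called), and *Ppard* changed by 0.31 (SE 0.19, not called). Of 16 receptors and cofactors, 4 were called higher and 3 lower, with a median of -0.14. Over all tested genes 25.7% were called higher and 20.9% lower, so these counts do not set the list apart. The dimer partner *Rxra* was higher (1.99, SE 0.13), as were *Cebpa* (4.11), *Cebpd* (4.14) and *Cebpb* (2.41), while the coactivators *Ppargc1a* (-1.86), *Ppargc1b* (-1.10) and *Ncoa1* (-1.22) were lower. Of 13 tested genes known as PPARγ targets, 8 were called higher and none lower (median 1.87). They included the lipid droplet coat gene *Plin2* (5.97, SE 0.35), the glucose transporter *Slc2a4* (2.22, SE 0.24) and the fatty acid oxidation gene *Cpt1a* (1.87, SE 0.15). *Acsl1*, an acyl-CoA synthetase, overlapped between regions (-0.03, SE 0.17).

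The tetraspanin family as a whole was mixed. Including *Cd9* and *Cd63*, 13 of 27 tested genes were called higher and 3 lower, with a median of 0.99. The leukocyte tetraspanins *Cd53* (4.90, SE 0.22), *Cd37* (4.54, SE 0.23) and *Cd82* (3.51, SE 0.20) rose, and *Tspan32* was measured at 4.71 to 7.65 CPM in infarcts and at most 0.104 CPM in contralateral cortices. *Cd81*, a close relative of *Cd9*, was higher in every infarct library but under the fold threshold (0.99, SE 0.14). *Tspan7*, a tetraspanin of neurons, was called lower (-1.96, SE 0.19), as were *Tspan33* (-1.55) and *Tspan5* (-1.45).

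Among 35 further genes of lipid-associated macrophages and disease-associated microglia, 33 were called higher and 1 lower, with a median of 4.76 beside 5.44 for the 10 genes. *Clec7a*, encoding the receptor Dectin-1, had the largest change (10.85, SE 0.61). *Trem2*, the lipid-sensing receptor of microglia, rose by 4.74 (SE 0.18) and *Apoe*, the main lipid carrier of brain, by 3.03 (SE 0.26). *Cadm1*, a cell adhesion gene also expressed by neurons, was called lower (-1.34, SE 0.15), and *Ank* was not called (-0.51, SE 0.15). Of the osteoclast-like markers, which overlap with this program, 4 of 5 tested genes were called higher and *Oscar* was called lower (-2.13).

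**Figure D4:**
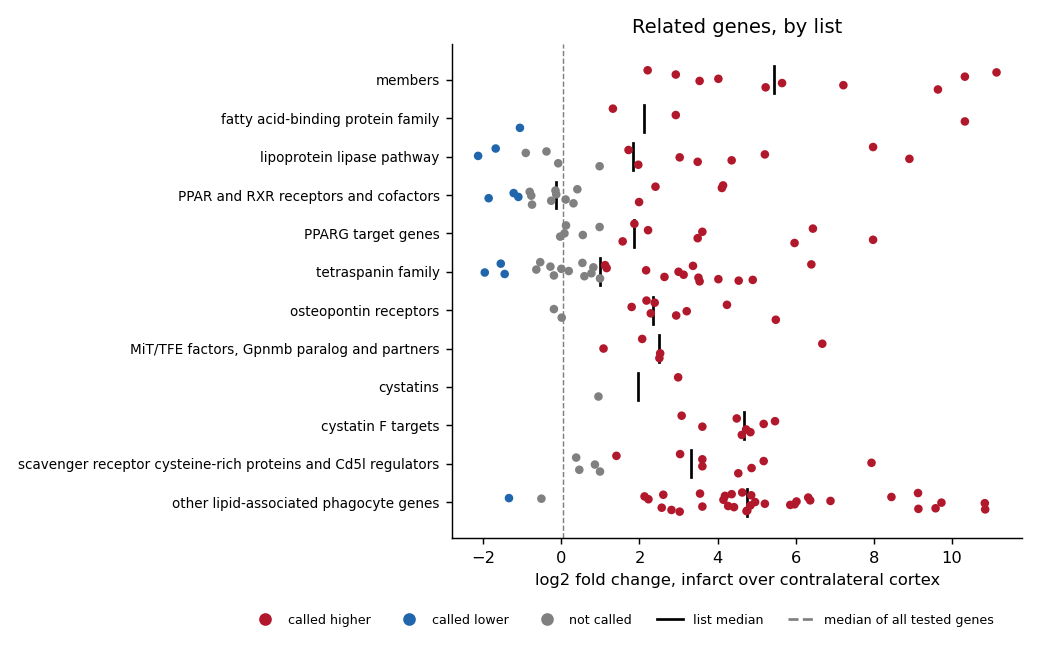
Log2 fold change, infarct over contralateral cortex, of each tested gene in the 10 genes (labelled members) and in 11 lists of related genes, with red for genes called higher, blue for genes called lower, gray for genes not called, black bars for list medians and a dashed line for the median of all tested genes. The cystatin F targets (median 4.68) and the other lipid-associated phagocyte genes (4.76) lie far to the right, whereas the PPAR and RXR receptors and cofactors straddle 0 (-0.14). The fatty acid-binding protein list includes *Fabp4* and *Fabp5*, and the tetraspanin list includes *Cd9* and *Cd63*.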

How the data were processed

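RNA-Seq libraries from 3 infarcts and 3 contralateral cortices were compared. The authors prepared stranded mRNA libraries, trimmed the paired reads with Trimmomatic 0.32, aligned them to GRCm38 with STAR 2.5.2b and deposited raw htseq-count tables, that is whole counts per Ensembl gene without normalization (versions from the submitters' processing notes). The counting annotation and strand setting are not given in the sources used here. Entries that name no gene held 26.6% to 34.3% of a library and were left out. Identifiers were matched to GENCODE M21 (45143 matched, 935 not).

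Genes passing filterByExpr were tested with edgeR 4.0.16 (R 4.3.3; TMM scaling, robust quasi-likelihood fit, region as the only term, biological coefficient of variation 0.22), with Benjamini-Hochberg adjustment over all tested genes. SDs are over 3 libraries. Lower bounds set 3 counts per contralateral library and cover counting error only. Per-length levels used the longest coding transcript. Profiles used log2 CPM with a prior count of 2, which compresses differences of genes with few counts. The procedure was tested on simulated data.

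The 10 genes and all lists were chosen with earlier results of these data known. Besides the 10 genes, paralogs, receptors, cofactors, inhibitors or substrates, the largest, smallest, lower or untested genes of a list, and the 2 nearest profiles of each of the 10 genes could be named. *Lilrb4a* was not analysed here. Alternatives were RLE, upper quartile and library total scaling, 2 other count filters, DESeq2 1.42.0, limma voom 3.58.1, other thresholds, other references, a replicate block and leaving out each library.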

Additional observations from a re-analysis of the deposited data

How the results depend on the processing

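All 10 genes were called higher under every scaling, filter, test and left-out library that could give a value. The minimum of 10 counts in every library removed *Cst7*, *Fabp4* and *Cd5l* from the test. Scaling by library totals shifted the median of all tested genes upward by 0.20 (log2). Leaving out each library in turn gave 9.33 to 10.34 for *Gpnmb*, 10.37 to 13.66 for *Cd5l*, 7.03 to 7.39 for *Spp1* and 1.97 to 2.45 for *Pparg*, and limma voom gave 11.78 for *Cd5l*. The low contralateral counts of *Cd5l*, *Cst7* and *Fabp4* limit how precisely their sizes can be stated.

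The counts on the macrophage scale were less stable. With homeostatic microglia markers as the reference, 9 of the 10 genes were called higher and 0 lower, and *Cd9* (2.11), *Cd63* (2.59), *Fabp5* (1.5) and *Pparg* (0.79) changed sign, because the microglia markers themselves differed less between regions. With at least 10 counts in every library, 2 were called higher, with *Fabp4* and *Cd5l* not tested and *Lpl* at 0.88, under the fold threshold. Leaving out a library gave 4 to 5 higher and 2 to 3 lower. With the mean of the pan-macrophage markers, *Cd9* was at -0.53.

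Among the lists, the minimum of 10 counts left 2 higher PPAR and RXR genes and 3 higher *Cd5l* relatives and regulators. A relative of *Spp1* was called higher (1 gene) with no count filter and with DESeq2, and 0 to 1 was called with a library left out. The other cystatins gave 2 higher genes with library totals or with no fold change threshold, and 1 to 2 with a library left out. In the main fit *Cst3* lay at 0.95, under the fold threshold, and *Ibsp* lay below the count filter. *Cebpb* and *Cebpd* had contralateral libraries under the minimum of 10 counts. The cause of each move was not tested.

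The replicate numbers do not pair the samples by the records, and deviations of same-numbered libraries correlated at -0.19, 0.101 and 0.001. With the replicate number as a block, 10 of the 10 genes were called higher and 0 lower, 5 were higher and 3 lower on the macrophage scale, and over all genes 3945 were higher and 3222 lower, beside 3999 and 3256 without it.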
